A study of Tupaia belangeri chinensis with 36 samples.

Results

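The annotated genes whose RNA peaked in the inner subventricular zone (ISVZ) of the E28 tree shrew cortex were followed across layers and stages. A gene was taken as a member when its mean in the 2 E28 ISVZ libraries was at least 5 CPM (counts per 1000000 counts on features of the library) and at least 1.5 times the mean of each of the E28 ventricular zone (VZ), outer subventricular zone (OSVZ), intermediate zone (IZ), cortical plate (CP) and marginal zone (MZ). This rule selected 81 of the 21043 features with a TSDBGID identifier, or 0.385% of the class taken as coding genes in an annotation of 76871 features. Because the members were selected on measured E28 values, everything said of them at E28, and of their change from E28 to a later stage, is a description without a test. The deposited identifiers are not paired with gene symbols, and 0 of the 21043 were found in a RefSeq table of tree shrew genes, so members are named by identifier and their functions are not described.

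The ISVZ lies above the VZ, where radial glia divide at the ventricle, and below the OSVZ and the IZ. In mammals it is known as the main site of intermediate progenitors, which express EOMES and divide to give excitatory neurons, and as one of the routes by which interneurons born in the ganglionic eminences migrate into the cortex. It therefore holds dividing cells, newborn neurons and passing cells side by side, and a level measured in the dissected layer is a mean over all of them. In such bulk RNA, fewer cells of a type and less RNA per cell cannot be told apart.

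All libraries came from fetal cortex, with no treatment named in the labels, of the Chinese tree shrew (Tupaia belangeri chinensis), cut out layer by layer with a laser from stained frozen sections. Every layer named above had 2 libraries at E28. The E37 material comprised 2 CPi and 2 CPo libraries (inner and outer cortical plate), 1 library of the whole CP, 3 IZ and 2 MZ libraries, and the E37 germinal layers were not analysed here. For E42 the MZ, CPo, CPi, IZ, OSVZ and ISVZ had 2 libraries each and the VZ had 1, since the file labelled E42 VZ replicate 2 held the same counts as E28 VZ replicate 2 over all 76871 features and was left out. How many fetuses stood behind a library is not given in the sources used here, so the spread between replicates may be partly technical.

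The 35 distinct libraries held 17932690 to 102042743 counts, and all 81 members passed the filter on low counts. That filter also used the E28 libraries, where the rule had already required a level, so passing it was no result. Of the 81 members, 4 were under 1 CPM in every E37 library and 2 in every E42 library. All 81 stayed in the counts of every comparison. The labelled layers could be checked only through noncoding transcripts that carry a marker gene's name. Transcripts named after radial glia genes summed to 52.2 and 46.6 CPM in the E28 VZ libraries against 32.0 and 22.9 CPM in the ISVZ, and those named after intermediate progenitor genes to 35.2 and 29.9 CPM in the VZ, 31.5 and 31.8 CPM in the OSVZ and 19.4 and 21.8 CPM in the ISVZ. By these transcripts the E28 ISVZ was thus not the layer richest in intermediate progenitor names. Marginal zone names summed to 145 and 96.4 CPM in the E28 MZ and to 9.8 CPM or less in every other E28 library. Cycling names summed to 61.1 and 80.9 CPM in the VZ and 22.4 and 23.9 CPM in the ISVZ, though 1 of the 29 reached 1 CPM. Excitatory neuron names were highest in the IZ (47.9 and 50.0 CPM), with 31.2 and 26.8 CPM in the CP and 5.96 and 4.06 CPM in the ISVZ. Transcripts named after interneuron genes summed to 12.6 and 7.57 CPM in the E28 ISVZ and to 11.4 and 16.6 CPM in the MZ, and in no other E28 library above 4.93 CPM. Of the 17 interneuron transcripts 6 reached 1 CPM in an E28 layer, as did 8 of the 64 radial glia and 6 of the 35 intermediate progenitor transcripts, and 0 of these listed transcripts met the rule.

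At E28 the peak was modest for most members. The E28 ISVZ mean ran from 5.0 to 1331 CPM with a median of 37.0 CPM, and its ratio to the next highest layer had a median of 1.79 and a highest value of 710. The ratio lay under 2 in 48 members, from 2 to 3 in 13, from 3 to 5 in 10 and at 5 or more in 10. The next highest layer was the VZ for 44 members, the OSVZ for 20, the MZ for 13, the IZ for 2 and the CP for 2. Both ISVZ libraries lay above all 10 other E28 libraries in 55 of the 81. The members were chosen on these same libraries, which favoured a high count, and its share over all features was not computed. Far more genes peaked in the outermost and innermost layers under the same rule, with 804 in the VZ, 633 in the MZ and 264 in the CP, while the OSVZ had 59 and the IZ 62.

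The edge of the rule was crowded. The 3 members nearest the fold limit had ratios of 1.507, 1.509 and 1.52, and the 3 features just outside it 1.49, 1.495 and 1.496. Between ratios of 1.4 and 1.6 there were 30 features below the limit and 19 above it. On level, members began at 5.004 CPM, and the nearest feature outside that met the ratio had 4.474 CPM.

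The 2 E28 ISVZ libraries did not carry equal weight. Of the 81 members, 38 met the rule in each replicate number alone, 29 in replicate 1 only and 14 in replicate 2 only. The ISVZ replicates lay more than 2-fold apart in 22 members, 18 of them higher in replicate 1, whereas among the 9037 TSDBGID features with an E28 ISVZ mean of at least 5 CPM they did so in 366 (4.05%), and 237 of those were higher in replicate 2. They lay more than 10-fold apart in 7 members against 20 of the 9037 (0.221%), and 6 of these 7 were higher in replicate 1. The members were chosen on the mean of these same libraries, which 1 high library can raise. The rule itself thus favoured replicates far apart, and the shares were not tested. Replicate 1 also had the smallest share of reads on features among the E28 libraries, 49.2% against 57.9% in replicate 2. Its part in the membership was measured by leaving it out, which gave 97 members, 49 of them shared with the 81.

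**Figure D1:**
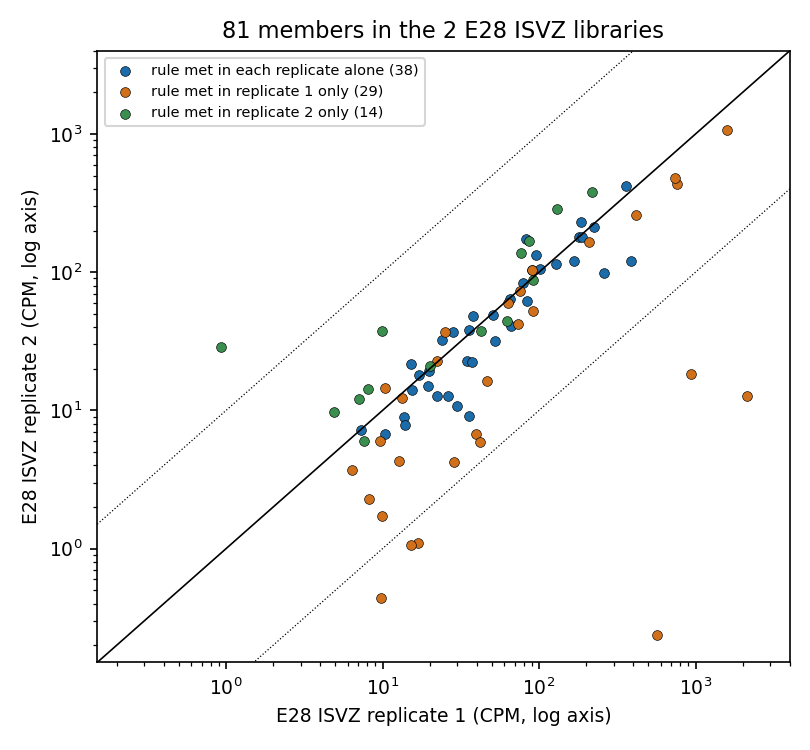
CPM of the 81 members in E28 ISVZ replicate 1 (x) and replicate 2 (y), both on log axes; the solid line marks equal values and the dotted lines a 10-fold difference. Most members lie near the solid line, and 7 lie beyond a dotted line, 6 of them higher in replicate 1.

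The members with the highest E28 ISVZ mean or the largest ratio to the next layer show both kinds of peak. TSDBGID.17038 had the highest mean, with 1594 and 1067 CPM in the E28 ISVZ and 674 to 921 CPM in the 10 other E28 libraries (median 798). Both ISVZ libraries lay above all others, although the ratio to the OSVZ was only 1.55. TSDBGID.26616 came next by mean, with 2125 CPM in ISVZ replicate 1 and 12.7 CPM in replicate 2, so that its ratio of 34.0 rested on replicate 1. TSDBGID.27082 had the largest ratio, with 564 CPM in ISVZ replicate 1 and 0.236 CPM in replicate 2 against at most 0.479 CPM in any other E28 library. In both, ISVZ replicate 2 lay within or below the range of the other E28 layers.

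Under the same rule 10 transcripts outside the TSDBGID class peaked in the E28 ISVZ. Of these noncoding transcripts 7 were more than 10-fold higher in ISVZ replicate 1 than in replicate 2, and 3 of the 10 are given here, chosen after their values were seen. LINC-MRPL42-8 stood at 2371 CPM in ISVZ replicate 1 and 32.5 CPM in replicate 2, and ARF6-AS-1 at 1124 and 3.45 CPM. DLX6A-AS-1, named after a DLX gene of the family of interneuron transcription factors, is not in the sums for interneuron names, whose list does not hold DLX6A. It stood at 507 and 286 CPM and was high in both libraries, with the MZ next at 125 and 76.1 CPM. It was also highest in the ISVZ at E42, with 1304 and 1228 CPM against 244 CPM or less in every other E42 library.

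At E42, in libraries the rule did not use, the ISVZ was the highest layer for 52 of the 81 members (64.2%), against 22.2% of the 9037 expressed TSDBGID features. The VZ was highest for 14, the OSVZ for 7, the CPo for 3, the MZ for 3, the IZ for 1 and the CPi for 1. Both E42 ISVZ libraries lay above all 11 other E42 libraries in 42 members (51.9%), against 6.68% of all features tested and 10.8% of the 9037. The whole rule, applied to the E42 layers, was met by 34 members (42.0%), against 1.04% of the TSDBGID features and 2.14% of the 9037. The genes that peaked in the E28 VZ met the rule for the VZ at E42 in 485 of 804 (60.3%), those of the OSVZ in 2 of 59 (3.39%), those of the IZ in 5 of 62 (8.06%) and those of the MZ in 95 of 633 (15.0%). The E42 VZ value rested on 1 library. The VZ was the highest E42 layer for 30.6% of the 9037, and shares of all features meeting the rule for these other layers were not computed.

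The member counts summed to 8670 and 9979 CPM in the E42 ISVZ libraries and to between 2248 and 4238 CPM in the other E42 libraries, the OSVZ being next. At E28 the sums were 12107 and 7076 CPM in the ISVZ and 1713 to 4056 CPM elsewhere. Transcripts named after interneuron genes summed to 40.5 and 47.4 CPM in the E42 ISVZ and to 2.5 to 20.8 CPM in the 11 other E42 libraries. At E28 they had summed to 12.6 and 7.57 CPM in the ISVZ, and the MZ was then their highest layer by mean. The sum for radial glia names was 85.9 CPM in the E42 VZ and 51.1 and 34.7 CPM in the ISVZ, and that for vascular and microglial names was 21.8 CPM in each ISVZ library against 4.24 to 18.9 CPM elsewhere. Of the 33 vascular and microglial transcripts, only 1 reached 1 CPM in an E28 layer. The part of these cells in the results was not tested.

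**Figure D2:**
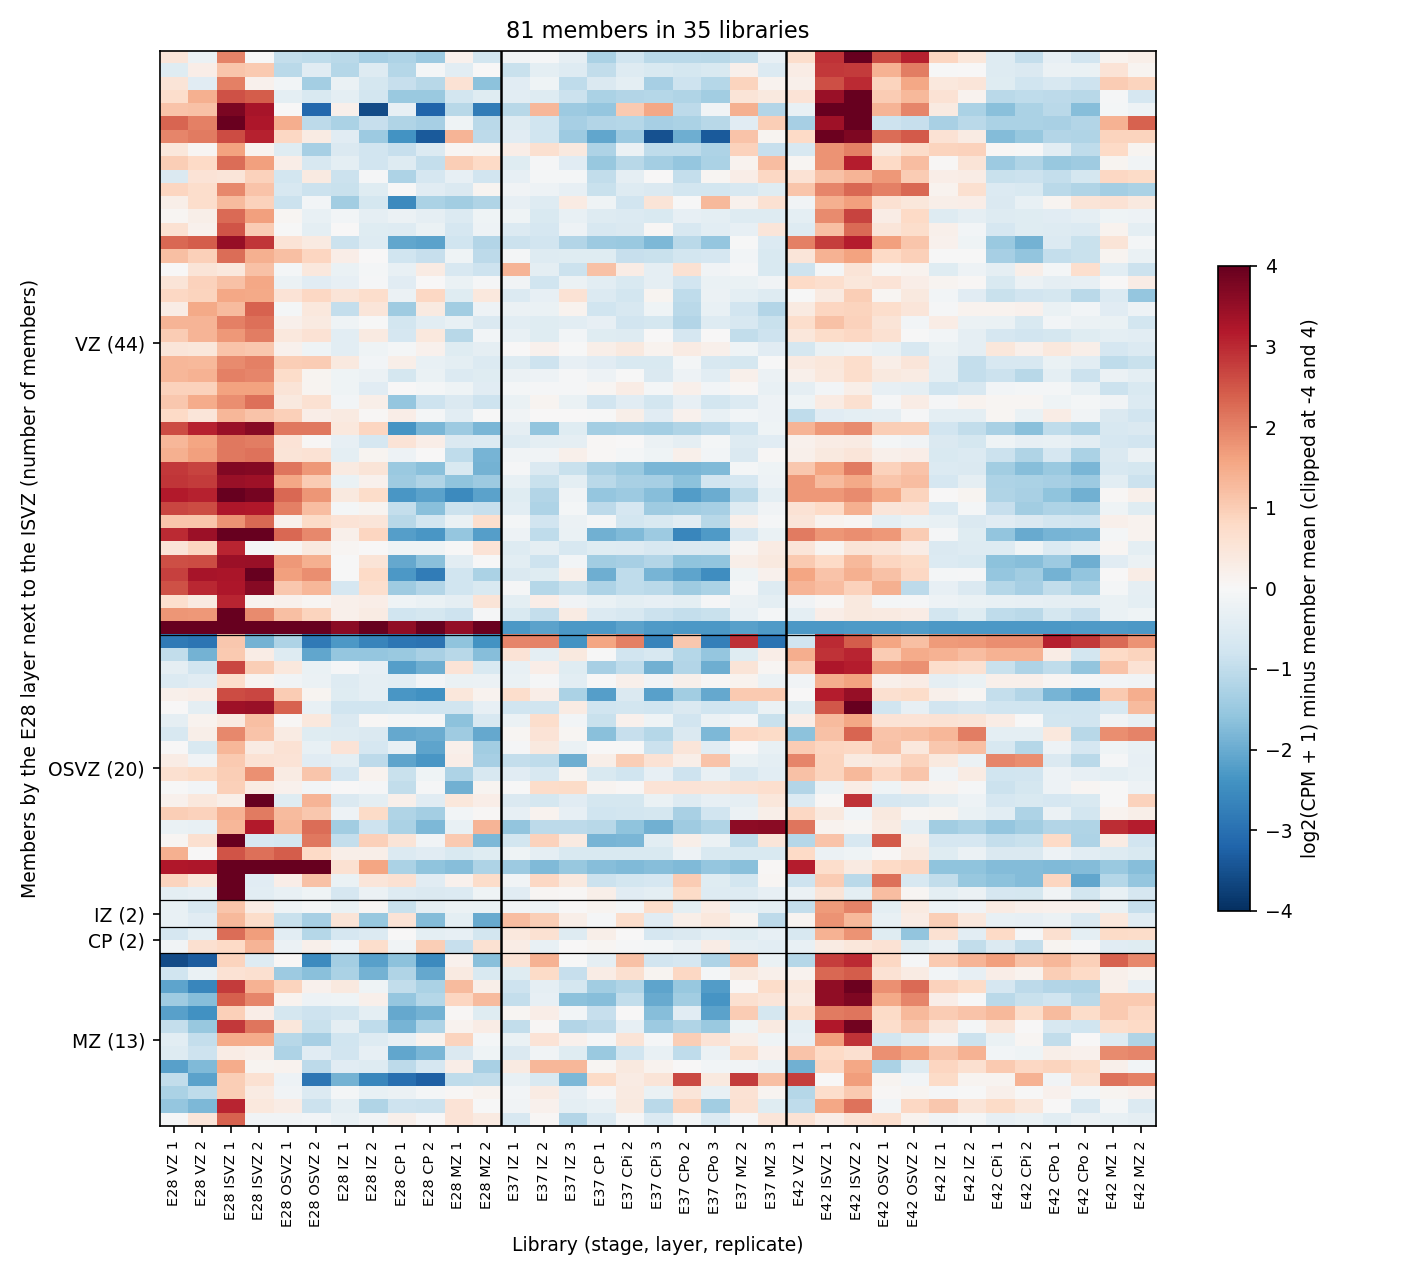
Each row is a member, grouped by the E28 layer next to the ISVZ, and each column 1 of the 35 libraries; color is log2(CPM + 1) minus the member's mean over the libraries. The ISVZ columns are mostly red at E28, with some members pale or blue in 1 of the 2 libraries, and red again at E42 for most members of the VZ and MZ groups, and the E37 columns are mostly pale.

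The members' ISVZ levels moved apart between the stages. The ratio of the E42 to the E28 ISVZ mean had a median of 0.764, and the E42 mean was the higher in 34 members. It was at least 2-fold higher in 18 members (22.2%, against 9.49% of the 9037) and at least 2-fold lower in 34 (42.0%, against 7.66%). The E28 mean took part in choosing the members, so these shares were not tested. Transcripts named after cycling genes summed to 22.4 and 23.9 CPM in the E28 ISVZ and to 7.07 and 7.78 CPM at E42, though 1 of the 29 reached 1 CPM in an E28 layer. Intermediate progenitor names summed to 19.4 and 21.8 CPM against 12.8 and 11.5 CPM. Both sums fell in the VZ as well, cycling names from 61.1 and 80.9 CPM to 6.54 CPM and intermediate progenitor names from 35.2 and 29.9 CPM to 11.6 CPM. The E42 VZ was 1 library. Radial glia names went the other way in the ISVZ, from 32.0 and 22.9 CPM to 51.1 and 34.7 CPM. The part of these cells in the change was not tested. In 7 members the E42 mean was at least 10-fold lower, among them TSDBGID.26616 and TSDBGID.27082. In both of these, E28 ISVZ replicate 1 was high and E28 ISVZ replicate 2 was not.

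**Figure D3:**
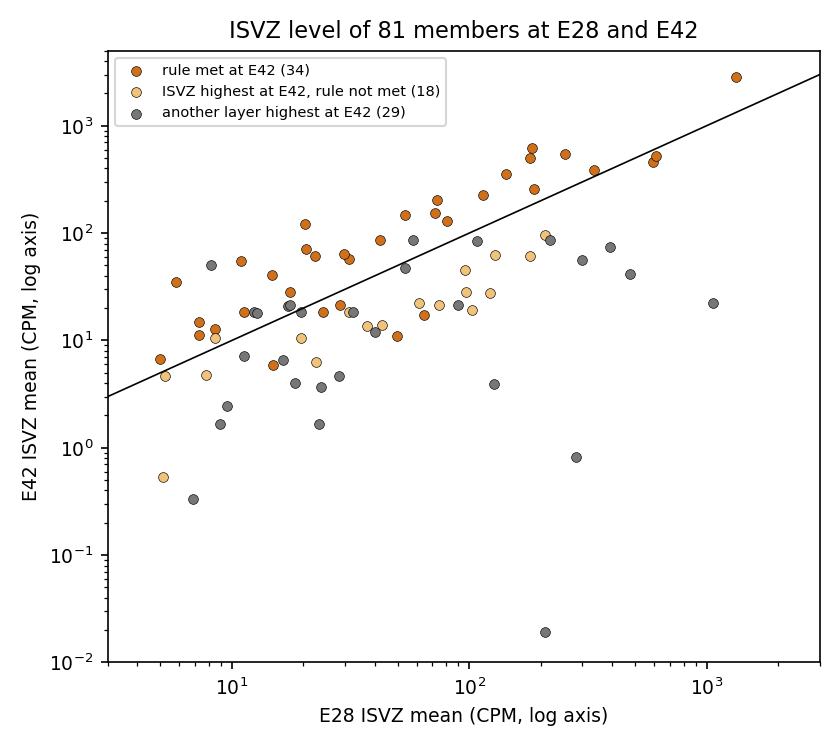
Mean CPM of each member in the 2 E28 ISVZ libraries (x) and the 2 E42 ISVZ libraries (y), both on log axes, with a line at equal values. The 34 members that met the rule again at E42 lie mostly near or above the line, and the member lowest on the y axis is TSDBGID.17859.

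Some members differed by stage or by replicate rather than by layer, and 2 of them are described here after their values were seen. TSDBGID.17859 stood at 55.4 to 288 CPM in all 12 E28 libraries (median 88.1) and at no more than 0.132 CPM in any of the 23 later libraries. Its stages did not overlap. TSDBGID.20847 stood at 15.4 to 58.0 CPM in the E37 libraries of replicates 1 and 2, and at 0.226, 0.166, 0.476 and 0 CPM in the E37 CPi, CPo, IZ and MZ of replicate 3. At E42 it reached 60.4 and 40.3 CPM in the ISVZ, 3.4 CPM in the VZ and 16.8 to 65.7 CPM elsewhere, while at E28 only ISVZ replicate 1 (15.2 CPM) exceeded 2.31 CPM. The labels do not say whether libraries of the same replicate number came from the same fetus.

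Whether the E42 ISVZ differed from each other E42 layer was tested with edgeR's quasi-likelihood test over all 26858 features that passed the filter, with Benjamini-Hochberg adjustment over all of them. The 5 comparisons share the 2 ISVZ libraries and are therefore not independent of each other. Fold changes are given as log2 values with an approximate standard error (SE). It was worked back from the test, as the absolute log2 fold change divided by the square root of the F statistic.

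Against the VZ, the layer most often next to the ISVZ at E28, 19 of the 81 members were higher in the E42 ISVZ (23.5%) and 2 were lower. The background was 3.39% of all features tested higher and 5.1% lower, and 7.65% and 12.1% of the 9037 expressed TSDBGID features, so the share of lower members lay under it. The median log2 fold change was 1.13 over the members and 0.04 over all features. TSDBGID.7198 had 25.4 and 103 CPM in the ISVZ and 0 counts in the single VZ library. With 3 counts assumed in that library, the ISVZ mean was at least 689-fold higher. This bound takes the mean as it is and leaves out the spread between the 2 ISVZ libraries. The quasi-likelihood test, which does not use the bound, gave an adjusted p of 0.012. TSDBGID.25918 had 7.86 and 13.4 CPM in the ISVZ against 0.28 CPM in the VZ, a log2 fold change of 5.18 (SE 1.04, adjusted p = 0.0014). The ISVZ libraries lay above the VZ library in both members. Both lower members had the OSVZ as the next layer at E28. TSDBGID.21623 had 86.1 and 167 CPM in the E28 ISVZ, but 4.47 and 3.34 CPM in the E42 ISVZ against 29.2 CPM in the VZ (log2 fold change -2.97, SE 0.88, adjusted p = 0.042). TSDBGID.24889 had 3.77 and 3.62 CPM in the E42 ISVZ against 18.3 CPM in the VZ (log2 fold change -2.37, SE 0.68, adjusted p = 0.027). The VZ rested on 1 library, without E42 ISVZ replicate 2 the count of higher members was 12, and 0 members were lower without ISVZ replicate 1 or without replicate 2. Chosen without E28 ISVZ replicate 1, 11 of 97 members were higher (11.3%).

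Against the OSVZ, 11 members were higher in the E42 ISVZ (13.6%) and 0 were lower by the quasi-likelihood test, where 0.298% of all features tested were higher and 0.477% lower, and 0.564% and 1.07% of the 9037. At an unadjusted p under 0.05 the test had 27 members higher and 1 lower, and the DESeq2 Wald test called 17 higher and 1 lower. The median log2 fold change of the members was 0.65, against 0.01 for all features. TSDBGID.7198 had 25.4 and 103 CPM in the ISVZ and 0.398 and 0.319 CPM in the OSVZ (log2 fold change 7.45, SE 1.55, adjusted p = 0.025). TSDBGID.13497 had 8.46 and 20.9 CPM in the ISVZ and 0.756 and 1.12 CPM in the OSVZ (log2 fold change 3.91, SE 0.73, adjusted p = 0.0037). In both members the groups did not overlap, and ISVZ replicate 2 was the higher. The count leaned on every library of this comparison except ISVZ replicate 1: without ISVZ replicate 2 it was 2 members, and without OSVZ replicate 1 or replicate 2 it was 3 each. Chosen without E28 ISVZ replicate 1, 8 of 97 members were higher (8.25%).

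Against the IZ, where newborn neurons migrate, 41 members were higher in the E42 ISVZ (50.6%) and 0 were lower by the quasi-likelihood test, against 5.16% and 6.71% of all features tested and 13.6% and 10.6% of the 9037. No member was lower at an unadjusted p under 0.05 or by the DESeq2 Wald test either, which are counts of 0, and the median log2 fold change was 1.53. TSDBGID.7198 had 0.0221 and 0.177 CPM in the IZ, for a log2 fold change of 9.41 (SE 1.73, adjusted p = 0.001). TSDBGID.6289 had 8.75 and 48.2 CPM in the ISVZ and 0.0221 and 0.118 CPM in the IZ (log2 fold change 8.7, SE 2.5, adjusted p = 0.033). Its 2 ISVZ libraries were more than 5-fold apart but both far above the IZ. Without ISVZ replicate 2 there were 26 higher members and without IZ replicate 2 there were 27.

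Against the cortical plate, taken as the mean of the CPi and CPo and made of settled neurons, 52 members were higher in the E42 ISVZ (64.2%) and 2 were lower, against 14.3% and 12.0% of all features tested and 24.6% and 23.2% of the 9037. The median log2 fold change was 1.85, against 0.23 over all features. TSDBGID.6289 had 0 counts in all 4 cortical plate libraries, so with 3 counts assumed in each library the ISVZ mean was at least 445-fold higher. Here too the bound leaves out the spread between the 2 ISVZ libraries, at 8.75 and 48.2 CPM. The quasi-likelihood test gave an adjusted p of 0.00088. TSDBGID.7198 had 0.0166 to 0.0961 CPM there, for a log2 fold change of 10.1 (SE 1.32, adjusted p = 9.4e-06). Both lower members were expressed in every layer. TSDBGID.2262 had 84.3 and 87.9 CPM in the ISVZ and 117 to 138 CPM in the cortical plate (log2 fold change -0.79, SE 0.17, adjusted p = 0.00053), without overlap. TSDBGID.7083 had 11.7 and 12.2 CPM in the ISVZ and 13.5 to 20.1 CPM in the cortical plate (log2 fold change -0.68, SE 0.25, adjusted p = 0.046). The count of lower members was 1 without ISVZ replicate 1, ISVZ replicate 2, CPi replicate 1 or CPo replicate 1.

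Against the MZ, the outermost layer, 36 members were higher in the E42 ISVZ (44.4%) and 2 were lower, where 6.28% and 8.76% of all features tested were, and 16.5% and 15.2% of the 9037. The median log2 fold change was 1.44. TSDBGID.9136 had 29.5 and 51.6 CPM in the ISVZ and 1.7 and 0.743 CPM in the MZ (log2 fold change 4.89, SE 0.52, adjusted p = 1.3e-07). TSDBGID.13497 had 1.08 and 0.278 CPM in the MZ (log2 fold change 4.22, SE 0.74, adjusted p = 0.00012). On a ratio scale, both were separated from the MZ by more than their replicates differed. The lower members had their highest E42 mean in the MZ. TSDBGID.24889 had 32.9 and 37.1 CPM in the MZ against 3.77 and 3.62 CPM in the ISVZ (log2 fold change -3.39, SE 0.63, adjusted p = 0.00041), and it stood at 50.4 and 52.1 CPM in the E37 MZ. TSDBGID.5618 had 42.3 and 43.5 CPM in the MZ against 19.1 and 17.1 CPM in the ISVZ (log2 fold change -1.39, SE 0.32, adjusted p = 0.0024). Chosen without E28 ISVZ replicate 2, 1 of 102 members was lower.

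**Figure D4:**
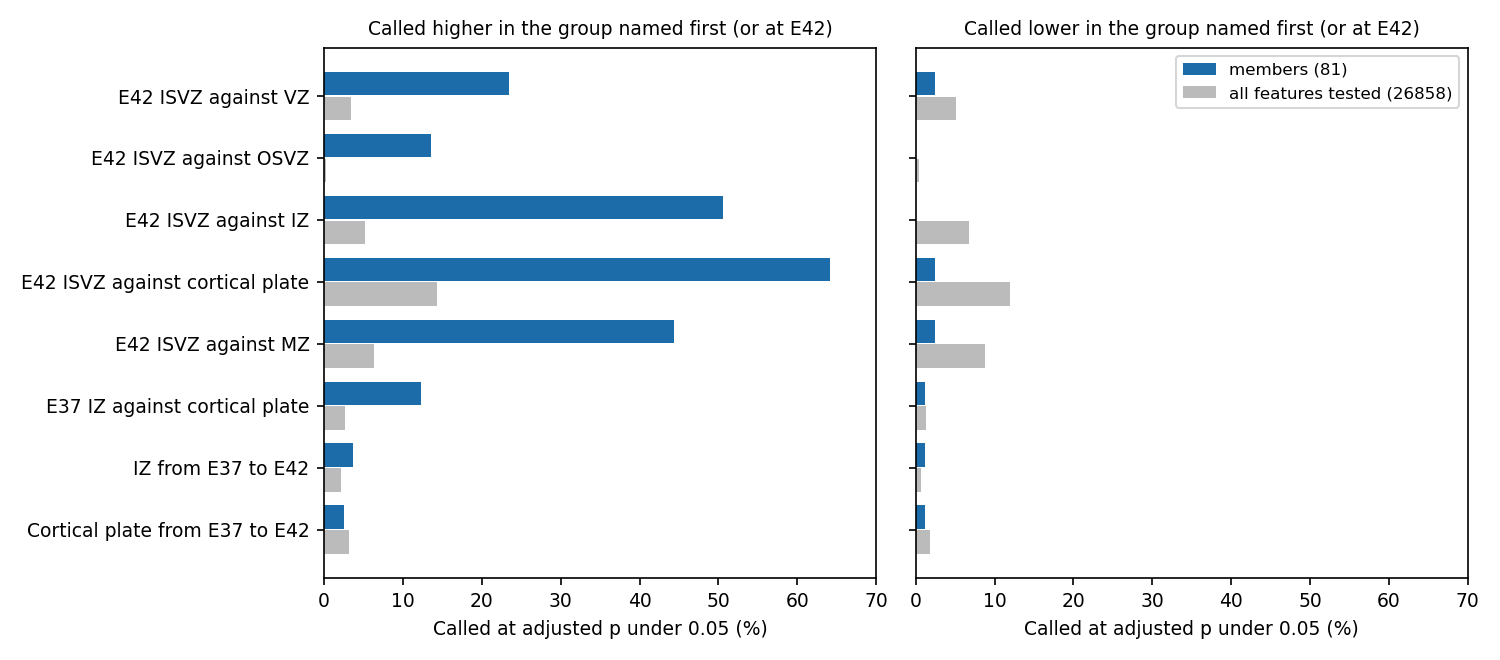
Percent of the 81 members (blue) and of all 26858 features tested (gray) that were called higher (left) or lower (right) in the first named group, or at E42, in each of the 8 comparisons. The blue bars exceed the gray ones on the left in every E42 ISVZ comparison, from 13.6% against the OSVZ to 64.2% against the cortical plate, and stay at or under 2.47% on the right.

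The members were also counted by the layer next to the ISVZ at E28, and differences between these groups were not tested. Of the 44 with the VZ next at E28, 7 were higher than the VZ and 3 higher than the OSVZ at E42, and the ISVZ was the highest E42 layer for 30. Of the 20 with the OSVZ next, 3 were higher than the VZ and 2 higher than the OSVZ, and the ISVZ was highest for 8. Of the 13 with the MZ next, 7 were higher than the VZ and 4 higher than the OSVZ, and the ISVZ was highest for 10. The 38 members that met the rule in each replicate alone included 11 higher than the VZ, 7 higher than the OSVZ and 28 higher than the cortical plate. The 7 members whose E28 ISVZ replicates lay more than 10-fold apart included 0 higher than the VZ, OSVZ, IZ or MZ by the quasi-likelihood test and 2 higher than the cortical plate. Among all features tested, 3.39% were higher than the VZ, 0.298% than the OSVZ and 14.3% than the cortical plate. The shares were 5.16% for the IZ and 6.28% for the MZ. Of the 9037 expressed TSDBGID features, the same shares were 7.65%, 0.564%, 24.6%, 13.6% and 16.5%, and the ISVZ was highest for 22.2%. The 7 members are too few to be told apart from such shares.

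TSDBGID.17038 and TSDBGID.5087 were abundant in the ISVZ at both stages. For both, the E42 VZ value rested on 1 library, and the difference between the 2 members was not tested. TSDBGID.17038 had 2699 and 2982 CPM in the E42 ISVZ, 2841 ± 200 CPM (SD, n = 2), and 760 to 1221 CPM in the 11 other E42 libraries. It was higher in the ISVZ by a log2 fold change of 1.61 against the VZ (SE 0.26, adjusted p = 9.6e-05) and 1.21 against the OSVZ (SE 0.2, adjusted p = 0.0013). TSDBGID.5087 had 741 and 482 CPM in the E28 ISVZ and 457 and 596 CPM in the E42 ISVZ, 527 ± 98.5 CPM (SD, n = 2). It was higher than in the OSVZ at 209 and 143 CPM (log2 fold change 1.51, SE 0.28, adjusted p = 0.0037), and against the VZ at 269 CPM its log2 fold change of 0.92 (SE 0.35) did not pass (adjusted p = 0.12). It fell toward the cortical plate, with 16.9 to 44.5 CPM in the 4 CPi and CPo libraries.

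**Figure D5:**
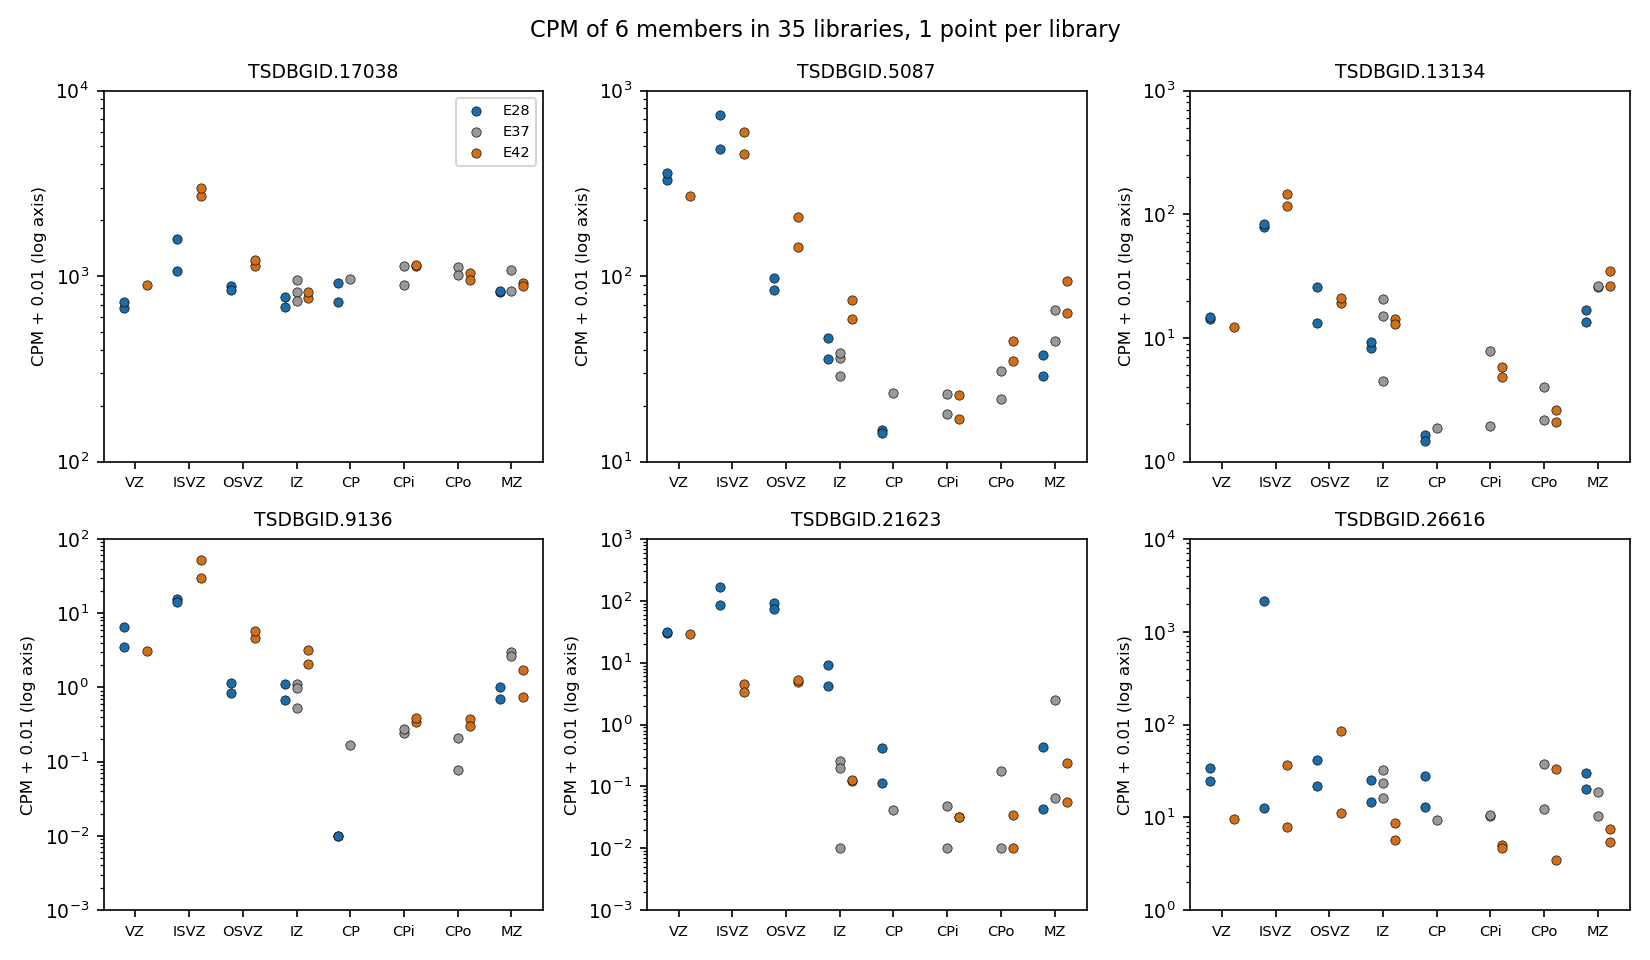
CPM plus 0.01 (log axis) of 6 members in each library, by layer (x) and stage (color), 1 point per library. TSDBGID.17038, TSDBGID.5087, TSDBGID.13134 and TSDBGID.9136 are highest in the ISVZ at E28 and E42, and TSDBGID.21623 is highest in the VZ at E42. TSDBGID.26616 stands at 2125 CPM in E28 ISVZ replicate 1 and at 85.2 CPM or less in every other library. Its E42 OSVZ libraries are also apart, at 85.2 CPM in replicate 1 and 11.1 CPM in replicate 2.

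At E37, where the germinal layers were not analysed here, the highest of the remaining layers was the MZ for 40 members (49.4%, against 34.2% of the 9037), the IZ for 21 (25.9%, against 23.6%), the CPo for 9 (11.1%, against 12.8%), the CPi for 6 (7.41%, against 10.9%) and the undivided CP for 5 (6.17%, against 18.5%). The share for the IZ was thus near the background. In the E37 IZ against the cortical plate, 10 members were higher (12.3%) and 1 was lower, against 2.6% and 1.25% of all features tested and 4.33% and 3.09% of the 9037, with a median log2 fold change of 0.38. With the replicate number as a block, 17.3% of members were higher and 7.41% lower. TSDBGID.13134 had 20.5, 14.9 and 4.47 CPM in the IZ and 1.86 to 7.87 CPM in the 5 cortical plate libraries (log2 fold change 1.8, SE 0.4, adjusted p = 0.011), so that the groups overlapped through IZ replicate 3. TSDBGID.21632 had 17.8, 9.64 and 17.0 CPM in the IZ and 2.56 to 6.86 CPM in the cortical plate, without overlap (log2 fold change 1.57, SE 0.23, adjusted p = 6.6e-05). At E28 both had ratios to the next layer above the members' median, 4.17 and 1.96. TSDBGID.9113 was the lower member, with 14.6, 13.9 and 6.9 CPM in the IZ and 34.4 to 66.6 CPM in the cortical plate (log2 fold change -2.19, SE 0.38, adjusted p = 0.0012). The lower count was 2 without CPi replicate 3 and 3 without IZ replicate 2, and 0 of 97 members chosen without E28 ISVZ replicate 1.

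From E37 to E42, few members changed in the IZ or the cortical plate. In the IZ, 3 were higher at E42 (3.7%) and 1 was lower, against 2.15% and 0.652% of all features tested and 4.22% and 1.79% of the 9037, so these shares are near or under the background. TSDBGID.5618 rose from 6.83, 9.42 and 7.28 CPM to 23.8 and 29.1 CPM (log2 fold change 1.71, SE 0.29, adjusted p = 0.00066), and TSDBGID.5087 from 36.1, 38.7 and 28.9 CPM to 74.2 and 58.5 CPM (log2 fold change 0.88, SE 0.25, adjusted p = 0.049). TSDBGID.11956 fell from 54.5, 56.5 and 56.4 CPM to 32.6 and 36.6 CPM (log2 fold change -0.73, SE 0.2, adjusted p = 0.035). The stages did not overlap in these 3 members. Leaving out any 1 of the IZ libraries, E37 replicate 1, 2 or 3 or E42 replicate 1 or 2, left 1 higher and 0 lower by the quasi-likelihood test, against 11 and 3 at an unadjusted p under 0.05 and 6 and 1 by the DESeq2 Wald test with all libraries.

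In the cortical plate, where the mean of the CPi and CPo was compared between E37 and E42, 2 members were higher at E42 (2.47%) and 1 was lower, against 3.1% and 1.87% of all features tested and 5.61% and 4.37% of the 9037. These shares are under the background. TSDBGID.7510 had 1.46 to 3.62 CPM at E37 and 17.9, 17.8, 7.8 and 3.32 CPM at E42 (log2 fold change 1.98, SE 0.42, adjusted p = 0.0059), with overlap through CPo replicate 2. TSDBGID.16775 had 6.89 to 34.3 CPM at E37 and 56.8 to 83.9 CPM at E42, without overlap (log2 fold change 1.9, SE 0.42, adjusted p = 0.013). The lower member, TSDBGID.21343, is named after its values were seen, with 3.77 to 5.16 CPM at E37 and 1.23 to 2.37 CPM at E42 (log2 fold change -1.29, SE 0.29, adjusted p = 0.008). The higher count was 4 without E37 CPi replicate 2 or E37 CPo replicate 2 and 1 without E37 CPi replicate 3, E42 CPi replicate 1 or E42 CPo replicate 1, and the lower count was 0 without E42 CPi replicate 2 or E42 CPo replicate 2. With the members chosen without 1 E28 ISVZ library, the higher count was 1 of 97 without replicate 1 and 4 of 102 without replicate 2.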

How the data were processed

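Laser-dissected layers of fetal tree shrew cortex were sequenced as poly(A) libraries. The authors trimmed the reads, mapped them with HISAT2 to the tree shrew genome and counted them per feature of the TS_3.0 annotation with HTSeq, and the deposited values are these raw counts. Whether strand was used in counting is not given in the sources used here. CPM is a count divided by the library's total on features, times 1000000, and is not divided by gene length. The members and lists were chosen with earlier results of these data known. Counts of 35 libraries were fitted in 1 edgeR 4.0.16 model (R 4.3.3) with 18 groups of layer and stage after filterByExpr (minimum count 10), with TMM scaling and the robust quasi-likelihood test, at an adjusted p of 0.05. This left 26858 features, 15911 of them TSDBGID, with 17 residual degrees of freedom and a biological coefficient of variation of 0.378. The test was also run on simulated data with known changes. Samples were grouped by their labels. The E37 cortical plate weighted its 5 libraries alike, and the change from E37 to E42 left out the whole CP. DESeq2 1.42.0, other filters and scalings, a replicate block and left-out libraries were the alternatives. At E37 same-numbered libraries deviated together in all 6 pairs of layers (correlations 0.129 to 0.272), so the block is given beside the E37 comparison of layers. In each comparison the 2 higher and 2 lower members with the largest log2 fold change and a mean of at least 5 CPM were named, and at E28 the 2 with the highest mean and the 2 with the largest ratio. Libraries held 17932690 to 102042743 counts, and all 18 pairs of analysed libraries with the same layer and stage differed by more than sampling noise. Plots were drawn with matplotlib 3.10.9. Counting-based bounds cover counting error only, since PCR copies cannot be told from separate molecules.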

Additional observations from a re-analysis of the deposited data

How the results depend on the processing

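The number of members was 33 at a fold of 2 and 38 when the rule had to hold in each replicate number alone, and 72 to 102 with 1 replicate number or 1 E28 ISVZ library left out. Rescaled library sizes, a minimum of 10 CPM or the rule without E28 VZ replicate 2 gave 101, 68 and 119. DESeq2's size factors and a minimum of 10 CPM moved none of the 16 percents of members called by over 1.5 times. The percents below follow the order used in the report, and the causes were not tested except where fewer libraries or members entered.

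The DESeq2 Wald test gave 37.0% higher and 1.23% lower against the VZ, 21.0% and 1.23% against the OSVZ, 19.8% and 3.7% in the E37 IZ against the cortical plate, 7.41% higher in the IZ at E42, and 6.17% and 2.47% in the cortical plate at E42. Without a filter, 1.23% were lower against the VZ and against the cortical plate, 2.47% lower in the E37 IZ, 7.41% higher in the IZ at E42, and 6.17% and 2.47% in the cortical plate. With all 36 libraries, 6.17% were lower against the VZ, 1.23% lower against the cortical plate, 1.23% and 0.0% in the IZ at E42, and 0.0% higher in the cortical plate. Fitting each comparison on its own libraries alone, the percents were 45.7 and 4.94 against the VZ, 30.9 and 1.23 against the OSVZ, 1.23 lower against the IZ, 66.7 higher against the MZ, 9.88 and 2.47 in the IZ at E42, and 4.94 lower in the cortical plate. A further limit of 1 on the absolute log2 fold change left 0.0% lower against the cortical plate and in the IZ at E42.

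With the replicate number as a block, 37.0% were higher against the VZ, 23.5% and 1.23% against the OSVZ, 7.41% lower in the E37 IZ, 2.47% lower in the IZ at E42 and 4.94% lower in the cortical plate, and it changed no other percent by over 1.5 times and no call of a named member. The labels do not say what the number marks. Correlations of same-numbered libraries' deviations were 0.167 to 0.265 over the 15 pairs of layers at E28. At E42 they were -0.117 to 0.232 over 15 pairs, of which 10 were above 0.1. For the E42 ISVZ they were 0.13 with CPi, 0.136 with CPo, 0.167 with IZ, 0.207 with MZ and 0.026 with OSVZ. The E42 layers compared share 2 numbers at most. The main E42 tests took same-numbered libraries as unpaired, so any pairing was ignored there. Libraries of different stages were taken to share only a number.

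Members at a fold of 2 were 42.4% higher and 0.0% lower against the VZ, 21.2% higher against the OSVZ, and 0.0% lower against the cortical plate and MZ, in the E37 IZ, the IZ at E42 and the cortical plate. Members that met the rule in each replicate alone, a choice made after seeing the data as were those without 1 E28 ISVZ library, were 0.0% lower against the VZ and MZ, 21.1% and 0.0% in the E37 IZ, 2.63% lower in the IZ at E42, and 5.26% and 0.0% in the cortical plate. The rule without E28 VZ replicate 2 gave 0.0% lower in the E37 IZ.

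With 1 library left out, the percents higher and lower ranged from 11.3 to 26.5 and 0.0 to 3.09 against the VZ, 2.47 to 14.7 and 0.0 to 0.0 against the OSVZ, 32.1 to 46.1 and 0.0 to 1.03 against the IZ, 50.0 to 63.0 and 1.23 to 4.9 against the cortical plate, 32.1 to 42.2 and 0.98 to 3.09 against the MZ, 8.64 to 15.5 and 0.0 to 3.7 in the E37 IZ, 1.23 to 3.92 and 0.0 to 1.03 in the IZ at E42, and 1.03 to 4.94 and 0.0 to 1.23 in the cortical plate. Of 263 values of named members under an alternative, 213 kept direction and call, 50 kept direction only and 0 reversed. The VZ at E42 rested on 1 library, which was assumed to vary like the other groups.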
